A study of Apis mellifera with 18 samples.

Results

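A set of 100 genes whose mRNA level in the honey bee (Apis mellifera) brain was highest at 5 d of adult age, in control bees and in bees fed the neonicotinoid dinotefuran alike, is described across 18 libraries. The members were chosen from these measurements. Each library was divided by its median ratio to the geometric mean of the 9115 genes above 0 in all 18 libraries, group means of log2(scaled FPKM + 0.1) were taken, and in each treatment the height of the 5 d level was its group mean minus the larger of the 1 d and 10 d means. The 100 genes with the highest value of the smaller of the 2 heights, here the rule value, were kept. A gene had to carry a provisional RefSeq name that starts with LOC but not with LOC406 and to have a mean FPKM (fragments scaled to transcript length and to mapped fragments, as deposited) of at least 1 in C_5d and in DT_5d. Of 9935 genes, 9520 passed by name and 7094 also by level, and 597 of these had a rule value above 0. All 100 members passed the filter on low values of the tests below.

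The study compared brains of worker bees kept in cages from emergence and fed 2 mL of 50% sucrose without (C) or with (DT) 0.01 mg/L dinotefuran. Dinotefuran is an insecticide that acts on nicotinic acetylcholine receptors of the insect nervous system. Libraries were made at 1, 5 and 10 d, which gives the groups C_1d, C_5d, C_10d, DT_1d, DT_5d and DT_10d with 3 libraries each. Every library held the pooled brains of 15 bees, and the bees of all groups came from 3 colonies, so no value belongs to 1 bee.

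A young adult worker moves from cell cleaning to nursing and later to foraging, and its physiology follows. In the nurse stage the hypopharyngeal glands, which lie in the head against the brain, secrete royal jelly proteins, and enzymes such as the alpha-glucosidase Hbg3 follow as the bee turns to nectar processing. Juvenile hormone, whose last synthetic step uses the methyl farnesoate epoxidase CYP15A1, is low in young workers and rises in foragers. In these bees, caged from emergence, age in days was also the time in the cage and, in DT, the time of dinotefuran feeding. The design cannot tell these apart. All members bear provisional names. A role is given here only for LOC551179 (CYP15A1 in the reference's synonyms) and for LOC727324, which the study's text names as a prolactin-releasing peptide receptor. Product names of the other members were not looked up.

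The pattern is one relative to most other genes. The median ratios by which libraries were divided ran from 0.539 to 1.81, were highest in DT_10d (1.46 to 1.54) among the DT groups and lay between 0.539 and 0.711 in DT_1d. In the FPKM as deposited, the 5 d mean was the highest of the 3 ages for all 100 members in C but for only 27 in DT, and the rule applied to those values took 32 of the 100 members again, 18 of them among the first 25. All levels below are scaled FPKM unless another scale is named, and the files hold no read counts behind these values (the read totals that the study lists for its libraries were not used here). Whether one or the other scale is closer to the RNA content of a brain cannot be told from FPKM.

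The first library of C_1d stood apart from the other 2 of its group. It had the highest level of its group for 65 of the 100 members, where 44.9% of all 9348 genes tested had their highest level there, and over 2 times the mean of the other 2 libraries for 19 members (7.28% of all genes). The hypopharyngeal gland list of 10 genes (Mrjp1, Mrjp2, Mrjp3, Mrjp4, Mrjp5, Mrjp7, Hbg3, LOC406081, LOC406093 and LOC406114) summed to 23409 in it and to 142691 and 174153 in the others, yet Hbg3 alone was at 5220 in it and at 86.2 and 64.4 in the others. Counts of members called that changed without that library are given both ways. Contrasts that do not hold C_1d kept their differences when it was left out. Only their SE changed, because the spread is pooled over all groups, and calls gained in them rest on that.

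Marker genes of several head tissues were read in every library. All 9 nicotinic receptor and synaptotagmin genes used as neuron markers were above 0 in every library, with sums from 31.6 to 58.2, and the 4 opsins of photoreceptors summed to between 272.5 and 846. The gland list summed to between 9546 and 288395 over the 18 libraries, highest in DT_1d and lowest in DT_10d. In pooled tissue, fewer cells of a type and less RNA per cell cannot be told apart. The fat body list of 5 genes summed to between 5.30 and 75.1 and the 3 cuticle genes (Apd-1, Apd-2 and Apd-3) to between 2928 and 14666, both lowest in DT_10d. None of the 100 members belongs to these lists, and the part of gland RNA in the members' levels was not tested. Royal jelly genes can also be expressed in the brain, and the values do not separate the sources.

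The 100 members rose and fell together, by construction. Their mean log2 level was 3.01, 2.46 and 2.44 in the C_1d libraries, 3.58, 3.51 and 3.48 in C_5d and 2.58, 2.91 and 2.82 in C_10d. In DT it was 2.65, 2.55 and 2.52 at 1 d, 3.64, 3.66 and 3.42 at 5 d and 2.58, 2.68 and 2.75 at 10 d. The 6 libraries of 5 d lay above the other 12 in this mean, the nearest of which was the first library of C_1d. As a description of the choice, all 3 libraries of C_5d lay above the 6 of C_1d and C_10d for 45 members (2.29% of all genes tested), the same held in DT for 54 members (3.61%) and in both treatments for 33 (0.535%).

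**Figure D1:**
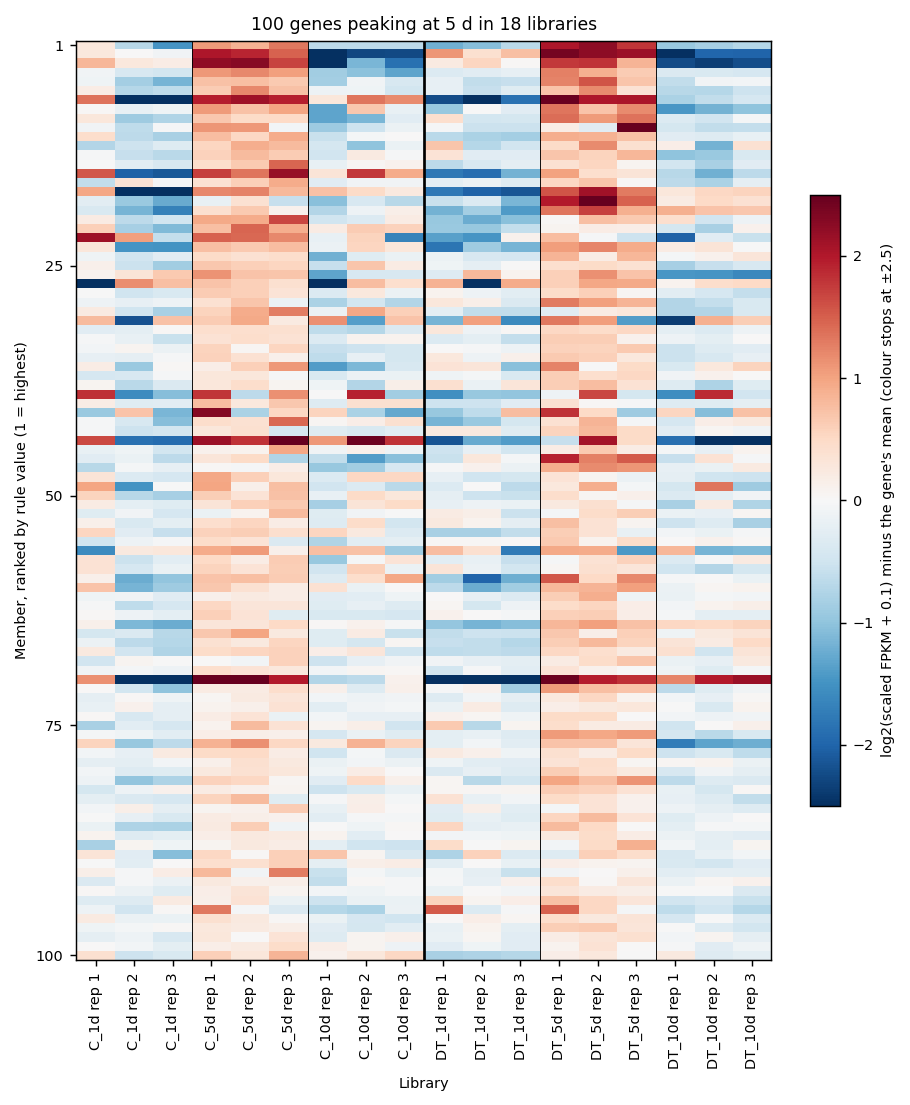
Scaled levels of the 100 members (rows, ordered by rule value) in the 18 libraries (columns, by group and replicate), as log2(scaled FPKM + 0.1) minus each gene's own mean over the libraries. The columns of C_5d and DT_5d are mostly red. Among C_1d, replicate 1 is warmer than the other 2, and the first 25 rows carry the strongest colours.

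Most heights were small. The rule value was at least 1 on the log2 scale for 9 members, between 0.5 and 1 for 13 and below 0.5 for 78, with a median of 0.37, which is 1.29-fold. It ran from 1.72 (3.29-fold) for LOC408306 to 0.25 (1.19-fold) for LOC412263. The members just inside the limit were LOC107964022 (0.253), LOC552545 (0.249) and LOC412263 (0.248), and the genes just outside were LOC409307 (0.245), LOC409667 (0.243) and LOC408517 (0.243), so the limit at 100 genes fell within a continuous run of values. The spread between libraries of 1 group, pooled over the 6 groups, had a median SD of 0.317 on the log2 scale among members and 0.254 among all genes tested, and 68 members had a rule value above their own pooled SD. With any single library left out, between 78 and 95 of the 100 were taken again, and 35 were taken in all 18 such lists, 23 of them among the first 25. The fewest, 78, were taken without the third library of C_5d, which also stood apart in its group. Its median ratio was 1.81 beside 1.04 and 0.954, and its gland list sum 42828 beside 79509 and 93319. Without it, the C_5d libraries lay above the other ages in C for 64 members in place of 45 (4.91% of all genes in place of 2.29%).

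**Figure D2:**
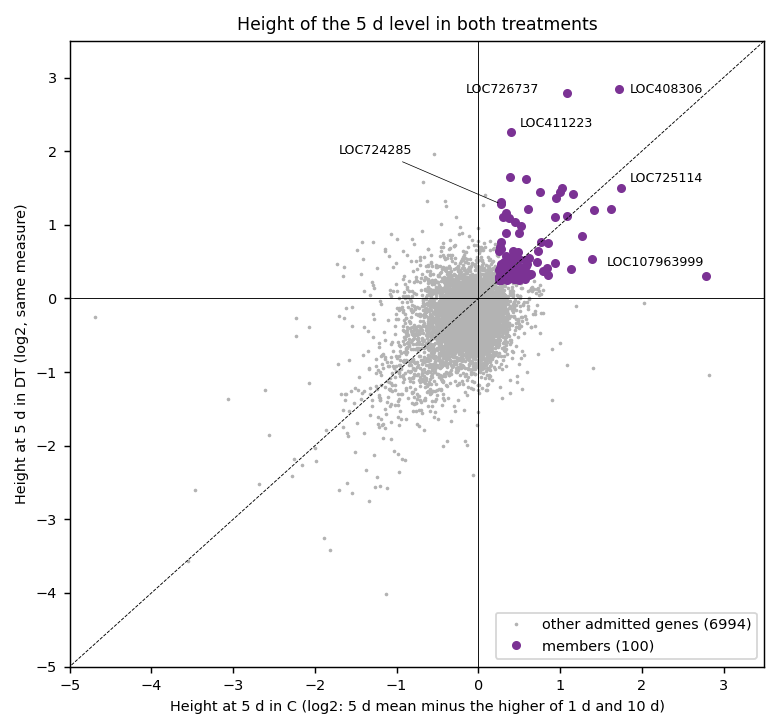
Height of the 5 d level (5 d group mean minus the higher of the 1 d and 10 d means, log2) in C (x axis) and in DT (y axis) for the 7094 genes that passed the rule by name and level. Each point is a gene, members are purple, and the dashed line marks equal heights. The members occupy the upper right corner by choice, and LOC726737, LOC411223 and LOC724285 lie well above the line.

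A group of members had levels at 10 d near those of 1 d. LOC408306 had the highest rule value of all. Its level was 27.9, 14.3 and 8.28 in C_1d, 48.4, 42.7 and 58.2 in C_5d and 14.8, 14.7 and 14.8 in C_10d. In DT it was 10.02, 11.02 and 14.51 at 1 d, 95.01, 110.4 and 80.7 at 5 d and 12.2, 13.03 and 14.2 at 10 d. The 5 d libraries did not overlap with those of the other ages in either treatment, and all 3 of DT_5d were above all 3 of C_5d, a difference of 0.94 ± 0.30 (log2, SE) that did not pass the threshold (limma, adjusted p = 0.113). The gene lies on linkage group 10 from base 2738197 to base 2772044 of Amel_HAv3.1.

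LOC552193, on linkage group 3 from base 4605753 to 4632475, followed the same course at a higher level. It was at 45.6, 27.2 and 21.8 in C_1d, at 81.2, 81.8 and 76.4 in C_5d and at 27.0, 46.1 and 36.9 in C_10d. In DT_5d it reached 115, 144 and 78.9, after 42.3, 31.9 and 32.9 in DT_1d and before 31.8, 45.7 and 46.3 in DT_10d. Without scaling its DT means were 22.2 ± 1.57, 78.6 ± 13.0 and 62.4 ± 13.8 FPKM (SD, n = 3) at 1, 5 and 10 d, so that the fall from 5 to 10 d was far smaller on that scale.

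LOC409433, LOC412897 and LOC724642 repeated this course within a narrower range. LOC409433 was at 21.1 ± 7.89, 48.96 ± 10.6 and 22.8 ± 2.97 in C and at 20.7 ± 2.62, 46.2 ± 13.3 and 17.02 ± 1.25 in DT at 1, 5 and 10 d (SD, n = 3 each). LOC412897 was at 32.5, 27.4 and 36.3 in C_5d and at 36.1, 35.2 and 31.8 in DT_5d, where no library of another age exceeded 25.8. LOC724642 was between 54.3 and 65.1 in the 6 libraries of 5 d and at most 46.7 in any other, and its 10 d level in DT lay below that of 1 d by a difference of -0.70 that missed the fold limit (limma, adjusted p = 0.0294).

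LOC727324, the gene named as a prolactin-releasing peptide receptor, was a member with a low level. Receptors of that kind are G protein-coupled receptors for short amidated peptides. It was at 2.42, 1.02 and 1.14 in C_1d, 3.22, 2.81 and 2.82 in C_5d and 0.731, 0.837 and 1.60 in C_10d. In DT it was at 2.67, 1.40 and 1.42, then at 5.38, 4.27 and 5.21, and at 1.53, 1.38 and 1.91. All 3 DT_5d libraries were above the 3 of C_5d (difference 0.72 ± 0.32 on the log2 scale, limma adjusted p = 0.236, not called).

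LOC551179, the reference's CYP15A1 on linkage group 7 (bases 13421090 to 13423725), reached its highest level at 5 d by a smaller step. Its libraries were at 1.73, 1.22 and 0.809 in C_1d, 2.01, 1.99 and 2.36 in C_5d and 1.88, 1.36 and 1.90 in C_10d. They were at 1.68, 1.87 and 0.894 in DT_1d, 3.72, 2.98 and 2.88 in DT_5d and 1.05, 1.37 and 1.62 in DT_10d. The 5 d libraries lay above all others of the same treatment in both, and DT_5d above C_5d (0.56 ± 0.28, limma adjusted p = 0.280, not called). The other enzyme late in juvenile hormone synthesis, the methyltransferase jhamt (LOC724216, looked up after these values were seen), had its lowest levels at 10 d and no 5 d maximum, with 6.21 ± 1.86, 4.54 ± 1.71 and 2.58 ± 0.600 in C and 5.17 ± 0.303, 4.61 ± 0.426 and 3.17 ± 0.256 in DT at 1, 5 and 10 d.

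**Figure D3:**
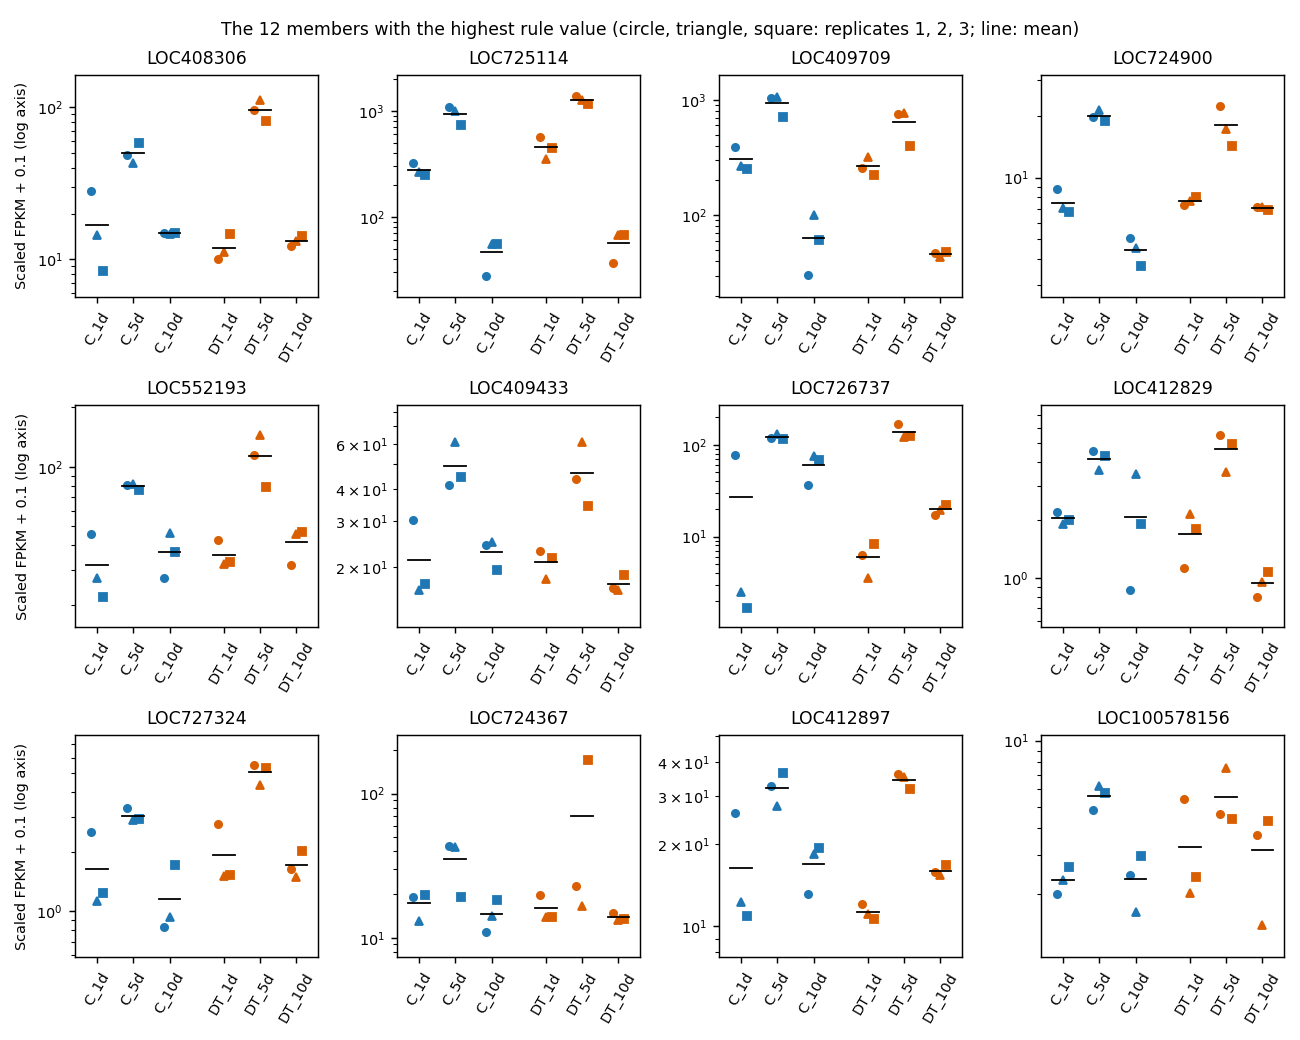
Scaled FPKM + 0.1 on a log axis for the 12 members with the highest rule value, by group. Circles, triangles and squares are replicates 1, 2 and 3, blue is C, orange is DT and the line is the mean. Most panels show the 5 d libraries above both other ages. Replicate 3 of LOC724367 lies far above the other 2 in DT_5d, and the 10 d levels of LOC725114 and LOC409709 lie far below those of 1 d.

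The most abundant members, LOC725114 and LOC409709, fell well below their 1 d level by 10 d. LOC725114 was at 320, 265 and 248 in C_1d, rose to 1081, 995 and 739 in C_5d and was at 27.5, 54.9 and 55.3 in C_10d. In DT it was at 572, 349 and 449, then at 1394, 1256 and 1171, and at 36.5, 66.7 and 66.4. The 5 d mean was 3.35-fold that of 1 d and 21.2-fold that of 10 d in C, and 2.84-fold and 23.3-fold in DT. Its 10 d level was lower than its 1 d level by -2.66 ± 0.30 on the log2 scale in C (limma, adjusted p = 0.00062) and by -3.04 ± 0.30 in DT (adjusted p = 2.1e-05). Its 835 bases lie wholly inside the span of LOC551957, whose level correlated with it over the 18 libraries (r = 0.87, n = 18 libraries that share group means), and without strand information reads of overlapping genes cannot be told apart.

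LOC409709, on linkage group 6 (bases 15037182 to 15039633), ran a nearly parallel course. It was at 393, 267 and 252 in C_1d, 1034, 1066 and 709 in C_5d and 30.3, 99.5 and 60.3 in C_10d, and in DT at 258, 322 and 225, then 756, 771 and 398, then 46.9, 43.0 and 47.4. From 1 to 10 d it fell by 2.39 ± 0.36 in C (limma, adjusted p = 0.00588) and by 2.53 ± 0.36 in DT (adjusted p = 0.000223). Of the 10 gland genes, 6 were also called lower in C_10d than in C_1d (Mrjp1 to Mrjp5 and Mrjp7) and 8 in DT_10d than in DT_1d, these 6 with LOC406081 and LOC406114. Over all genes, 0.845% were called lower in C_10d than in C_1d and 8.83% in DT_10d than in DT_1d. The 6 Mrjp genes were not highest at 5 d in both treatments. Without the first library of C_1d the same 6 were called lower in C and Hbg3 higher, and LOC406093 joined those lower in DT. Markers of other tissues were called lower at 10 d too, in DT Hex70a, Hex70c and Vg of the 5 fat body genes and Apd-1 and Apd-2 of the 3 cuticle genes, and in C Hex70a. Without that library Hex70c and Apd-1 were also called lower in C and Apd-3 in DT. The part of RNA of these tissues in the fall of LOC725114 and LOC409709 was not tested.

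LOC724900 and LOC726134 had lower levels at 10 d than at 1 d in C, by differences that were not called with all libraries. LOC724900 was at 19.7, 21.3 and 18.8 in C_5d against 3.63 to 4.98 in C_10d and 6.69 to 8.69 in C_1d, and its 10 d minus 1 d difference of -0.76 ± 0.15 in C passed the adjusted p (0.0333) but not the fold limit. In DT it was at 7.24, 7.56 and 7.91 at 1 d and 7.10, 7.06 and 6.87 at 10 d, a difference of -0.11 ± 0.15 (adjusted p = 0.634), and DT_10d lay above every C_10d library, a difference of 0.69 ± 0.15 (limma, adjusted p = 0.0477) that again missed the fold limit. LOC726134 fell from 1 to 10 d in DT by 1.70 ± 0.28 (limma, adjusted p = 0.000605) and had a difference of -1.07 ± 0.28 in C (adjusted p = 0.0643), which was called without the first library of C_1d (-1.20 ± 0.31, adjusted p = 0.0146).

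The count of members that differed between C_10d and C_1d depended on the first library of C_1d. With it, no member was called higher and 2 were called lower, LOC725114 and LOC409709 (all genes: 0.246% higher, 0.845% lower, 1.09% in all), with 24 at an unadjusted p under 0.05 (22.8% of all genes) and a median difference of 0.09 on the log2 scale beside 0.00 over all genes. Without the first library of C_1d, 13 members were called higher and 3 lower (all genes then: 3.38% and 6.3%). Those higher included LOC410747 (3.496), LOC726737 (4.80), LOC724389 (3.07) and LOC411223 (3.68 on the log2 scale), all high in the library left out. On the same terms, calls in DT_5d against C_5d stayed at 3 higher and 0 lower (all genes: 1.67% and 0.46%), those in DT_10d against DT_1d came to 9 higher and 4 lower (5.4% and 9.07%), and that in the height of the maximum stayed at 1 (0.225% higher).

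The same ages were compared in DT. In DT_10d, 8 were called higher and 4 lower, where 5.28% of all genes were higher and 8.83% lower (14.1% in all), 31 had an unadjusted p under 0.05 (48.5% of all genes), and the median difference of the members was -0.03 beside 0.02 over all genes. In FPKM as deposited 64 members were called higher and 2 lower, but so were 60.4% and 2.28% of all genes, whose median shifted by 1.20 on that scale. Whether DT and C differ in the number of members that changed from 1 to 10 d was not tested, and without the first library of C_1d the counts were 13 in DT and 16 in C. The members called lower were LOC725114, LOC409709, LOC726134 and LOC408603, and those called higher were LOC410803, LOC107963999, LOC409409, LOC410509, LOC410747, LOC551735, LOC726703 and LOC102653797. Without scaling, LOC726134 (-0.46) and LOC408603 (-0.00) were no longer called lower.

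LOC410803, on linkage group 2, kept most of its 5 d level. It was at 11.54, 10.03 and 10.84 in DT_1d, 40.5, 46.3 and 37.9 in DT_5d and 32.4, 32.2 and 33.5 in DT_10d, and rose from 1 to 10 d by 1.59 ± 0.24 (log2, limma, adjusted p = 0.000378). In C the libraries were at 24.6, 10.4 and 9.54, then 27.8, 28.1 and 32.0, then 23.1, 24.5 and 22.2, so the first library of C_1d alone was at the later levels.

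LOC107963999 had the largest difference from 1 to 10 d. It was listed at 0.0748, 0 and 0.0694 in DT_1d, reached 11.0, 7.82 and 7.14 in DT_5d and stayed at 4.62, 7.91 and 8.92 in DT_10d (difference 5.604 ± 0.86, limma, adjusted p = 0.000391). The size of that difference depended on the pseudocount and ran from 2.92 to 7.40 over the alternatives. In C it was at 4.41, 0.0357 and 0.117, then 11.68, 11.96 and 7.968, then 1.127, 1.195 and 2.097, with the 10 d levels all below those of DT_10d. The difference between DT_10d and C_10d of 2.20 ± 0.86 was not called (adjusted p = 0.287) but was without the first library of C_1d (2.20 ± 0.32, adjusted p = 0.00248).

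LOC410747, LOC410509 and LOC409409 were also lowest at 1 d in DT. LOC410747 was at 2.02, 1.71 and 1.57 in DT_1d, 21.6, 31.5 and 17.97 in DT_5d and 8.77, 10.4 and 10.7 in DT_10d (10 d minus 1 d 2.43 ± 0.70, limma, adjusted p = 0.0176). In C_1d it was at 14.2, 0.917 and 0.706, the widest gap between the first and the other libraries of that group after those of LOC726737 and LOC107963999. LOC410747 lies inside the span of LOC726243, whose levels did not follow it (r = -0.45, n = 18). LOC409409 was at 17.4 to 30.8 in DT_5d and 15.04 to 17.4 in DT_10d, against 3.47 to 5.20 in DT_1d.

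Whether dinotefuran changed the members was tested at each age. At 1 d no member was called in either direction (all genes: 0.0107% higher, 0% lower), with 8 members at an unadjusted p under 0.05 (10.5% of all genes), and the count stayed 0 in every alternative, limma without the trend included. At 5 d 3 members were called higher and none lower in DT (0.321% and 0.15% of all genes, 0.471% in all), with 23 at an unadjusted p under 0.05 (21.4% of all genes). At 10 d none was higher and 2 were lower (0.235% and 0.385%, 0.62% in all), with 27 at an unadjusted p under 0.05 (11.9%). The median difference of the members was -0.04, 0.05 and -0.05 at 1, 5 and 10 d on the log2 scale. The libraries of DT_5d lay above all of C_5d for 22 members (12.8% of all genes) and below for 8 (12.4%). At 10 d the counts were 15 (12.3%) and 13 (12.7%), and at 1 d 3 (8.26%) and 4 (9.52%).

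**Figure D4:**
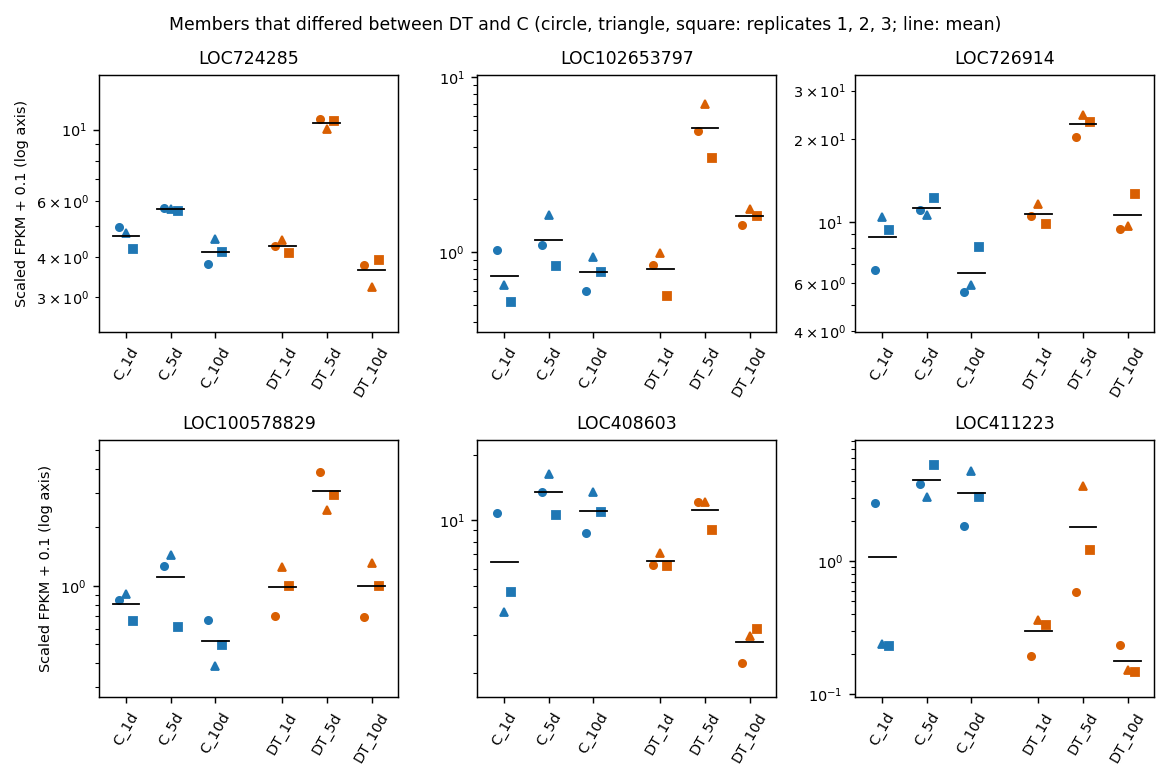
Scaled FPKM + 0.1 on a log axis for the 6 members with an adjusted p under 0.05 in a DT against C comparison and a change beyond 2-fold at that age or in the height of the maximum. Circles, triangles and squares are replicates 1, 2 and 3, and lines are means. DT_5d lies above C_5d in the first 4 panels, and DT_10d lies below C_10d for LOC408603 and LOC411223.

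LOC724285 had the clearest difference in the height of its maximum. It was at 4.86, 4.67 and 4.13 in C_1d, 5.61, 5.55 and 5.48 in C_5d and 3.70, 4.44 and 4.05 in C_10d, and at 4.23, 4.42 and 4.02 in DT_1d, 10.7, 9.95 and 10.5 in DT_5d and 3.68, 3.13 and 3.83 in DT_10d. Treated and control libraries were thus close at 1 and 10 d and apart at 5 d. DT_5d exceeded C_5d by 0.89 ± 0.11 on the log2 scale (limma, adjusted p = 0.00362), just under the fold limit. The height above the mean of 1 and 10 d was larger in DT by 1.04 ± 0.14 (interaction, adjusted p = 0.00879), the only member called in that test, in which 0.0214% of all genes were called higher and 0.0321% lower (0.0535% in all). At an unadjusted p under 0.05 it gave 9 members (10.1% of all genes). In deposited FPKM the 5 d means were 7.55 ± 1.80 in DT and 7.03 ± 2.54 in C (SD, n = 3), and the interaction was 0.47 (adjusted p = 0.545). LOC724285 spans bases 2574336 to 2706018 of linkage group 10 and lies 32179 bases from LOC408306, which also had a larger height in DT (1.19 ± 0.36, adjusted p = 0.408, not called).

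LOC102653797 had the largest difference called at 5 d. Its level was 4.82, 6.90 and 3.35 in DT_5d and 0.992, 1.52 and 0.728 in C_5d, and at most 1.67 in any library of another age. DT_5d was higher by 2.11 ± 0.33 on the log2 scale (limma, adjusted p = 0.00885), and DT_10d was still above DT_1d by 1.04 ± 0.33 (adjusted p = 0.0265). LOC726914 was at 20.2, 24.4 and 22.9 in DT_5d and 10.9, 10.5 and 12.1 in C_5d (1.00 ± 0.18, adjusted p = 0.0176), and LOC100578829 at 3.78, 2.36 and 2.85 against 1.17, 1.33 and 0.511 (1.55 ± 0.35, adjusted p = 0.0464). No libraries overlapped in these comparisons. In deposited FPKM none of the 3 was called, and without the second library of DT_5d none was called either. The call of LOC100578829 was lost in 20 of 26 alternatives (adjusted p up to 0.181), among them quantile normalization, a pseudocount of 0.01, no filter, no trend and the replicate block, that of LOC726914 in 7 (up to 0.604) and that of LOC102653797 in 2 (up to 0.0641).

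All 3 lie wholly inside the span of another gene, as 8 of the 100 members did. The surrounding genes did not share their difference between DT_5d and C_5d. LOC724885 around LOC102653797 had a DT_5d minus C_5d difference of -0.07, LOC113218809 around LOC726914 of -0.17 and LOC724292 around LOC100578829 of -0.31 on the log2 scale, and none of them was called (limma, adjusted p from 0.239 to 0.890).

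At 10 d, LOC408603 and LOC411223 were lower in DT. LOC408603 was at 2.12, 2.86 and 3.08 in DT_10d and at 8.62, 13.5 and 10.9 in C_10d, a difference of -1.99 ± 0.30 on the log2 scale (limma, adjusted p = 0.00672). At 5 d its levels overlapped, with 12, 12.1 and 8.98 in DT and 13.4, 16.2 and 10.5 in C, and its 1 d level in DT was 6.12, 6.995 and 6.097. From 1 to 10 d it fell by 1.24 in DT (adjusted p = 0.00686) and differed by 0.91 in C (adjusted p = 0.114), where without the first library of C_1d it was called higher at 10 d (1.37 ± 0.22, adjusted p = 0.00053). In deposited FPKM it was not called at 10 d (-1.70, adjusted p = 0.103). LOC411223 was at 0.136, 0.0522 and 0.0473 in DT_10d and 1.76, 4.70 and 2.97 in C_10d (-4.11 ± 0.79, adjusted p = 0.0243). The DT_10d levels lie near or below the pseudocount, and the difference ran from -5.18 to -1.88 over the alternatives. Its libraries were far apart within groups, at 0.485, 3.57 and 1.11 in DT_5d and at 2.65, 0.141 and 0.131 in C_1d, and the call was lost when any of the 10 d libraries other than the first of C_10d was left out (adjusted p up to 0.144). Without the first library of C_1d, LOC724389, LOC726737 and LOC413739 were also called lower and LOC107963999 higher in DT_10d, which gave 1 member higher and 5 lower (all genes: 0.428% and 0.856%). That library is in neither group compared, so the differences of these genes stayed the same and only their SE was smaller.

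Among the remaining first 25 members the spread decided how the height read. LOC724367 was at 22.9, 16.6 and 171 in DT_5d, 1 library far above the other 2, though the rule took the gene with any 1 library left out (18 of 18 lists), and the third library of C_5d (19.2) lay within the range of the other ages. LOC410470 had one high library in C_5d (24.7, 28.8 and 50.6), all above the highest library of another age (19.9). LOC100578156, LOC725590, LOC411696 and LOC725154 had non-overlapping 5 d libraries in C, and of these LOC725590 had them in DT too. LOC102656131 was at 11.9 in the first library of C_1d, above all its 5 d libraries, and LOC726040 at 58.4 in the second library of C_10d, as high as the highest of C_5d (58.2).

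Libraries of 1 group were more than 4-fold apart in 14 members. In LOC552828, LOC113218590 and LOC102654465 this happened in at least 3 groups, as in LOC113218590 with 9.91, 1.18 and 9.51 in C_1d and 14.3, 11.8 and 2.09 in DT_5d. For LOC102654465 the rule value turned from 0.49 to -0.39 when the first library of C_1d (0.209 beside 5.48 and 4.12) was left out.

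The members lay on all linkage groups but 16, with 11 each on 1, 5 and 11, which is 1.19%, 1.92% and 1.77% of the genes there that passed by name and level (1.41% over all, highest at 3.18% on 13), and their gene spans were longer, with a median of 7429 bases beside 4146.5 for the 7094 genes that passed by name and level. In 10 places 22 members lay within 50 kb of another member. These neighbours were chosen by position, and a share expected for a list of this size was not computed.

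The place with the most members was on linkage group 5 from base 12968139 to 13102397. It held LOC552545, LOC412488, LOC726737 and LOC726703, and Acph-1, an acid phosphatase gene that the rule could not take by name, lies wholly inside the span of LOC726703 (bases 13090287 to 13099780). LOC726737 was at 77.02, 2.39 and 1.59 in C_1d, 117, 130 and 116 in C_5d and 36.1, 75.6 and 67.9 in C_10d, and in DT at 6.25, 3.45 and 8.11, then 166, 121 and 124, then 17.1, 19.6 and 22.2. LOC726703 overlaps it by 1373 bases and followed it (r = 0.91, n = 18) at 0.107 to 2.31. Acph-1 was at 6.45, 2.09 and 2.98 in C_1d, 7.78, 6.69 and 8.70 in C_5d and 4.15, 5.12 and 7.34 in C_10d, and at 3.64, 3.998 and 4.12, then 7.44, 9.72 and 5.64, then 3.11, 2.63 and 2.85 in DT. Within this stretch, LOC412487 had no 5 d maximum in either treatment. LOC100579034 had one in DT (means of 1.03, 2.42 and 1.18 at 1, 5 and 10 d) and none in C (1.51, 1.19 and 1.45).

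On linkage group 1, LOC412458 and LOC412829 lie 9398 bases apart, and Grd, a ligand-gated ion channel gene of the GABA receptor family, spans bases 6428662 to 6469994 before the first of them, which starts at 6481220. Grd was the gene outside the rule that followed the members' mean most closely (r = 0.88 over 18 libraries). It was at 18.9, 10.8 and 9.09 in C_1d, 23.6, 28.9 and 20.3 in C_5d and 16.2, 17.6 and 17.4 in C_10d, and at 14.0, 9.80 and 15.5, then 37.5, 49.4 and 47.2, then 14.8, 14.8 and 18.4 in DT. LOC412458, the third most abundant member, was at 264, 252 and 182 in C_5d and 349, 291 and 384 in DT_5d, beside 143, 248 and 192 in C_10d and 111, 140 and 136 in DT_10d. LOC412829 lay at 3.46 to 5.43 at 5 d. LOC724721, which lies between the 2 members, had rule value -0.37 and did not follow them.

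LOC724389 on linkage group 6 spans bases 4500753 to 4655231, and Hbg3 lies wholly inside it (bases 4602439 to 4613520), as does AGLU2, a further alpha-glucosidase gene. LOC724389 was at 83.4, 6.97 and 6.46 in C_1d, 95.1, 72.4 and 129 in C_5d and 35.5, 97.9 and 54.0 in C_10d, and at 8.19, 7.53 and 12.5, then 57.6, 38.4 and 35.7, then 17.5, 12.3 and 17.98 in DT. Hbg3 was at 5220, 86.2 and 64.4 in C_1d, 7518, 8126 and 8522 in C_5d and 3329, 8917 and 6125 in C_10d, and at 290, 124 and 943, then 4325, 3244 and 3406, then 762, 351 and 630 in DT. Their levels had r = 0.96 over the 18 libraries on the log2 scale, and how far reads of Hbg3 were counted for LOC724389 cannot be told without strand.

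**Figure D5:**
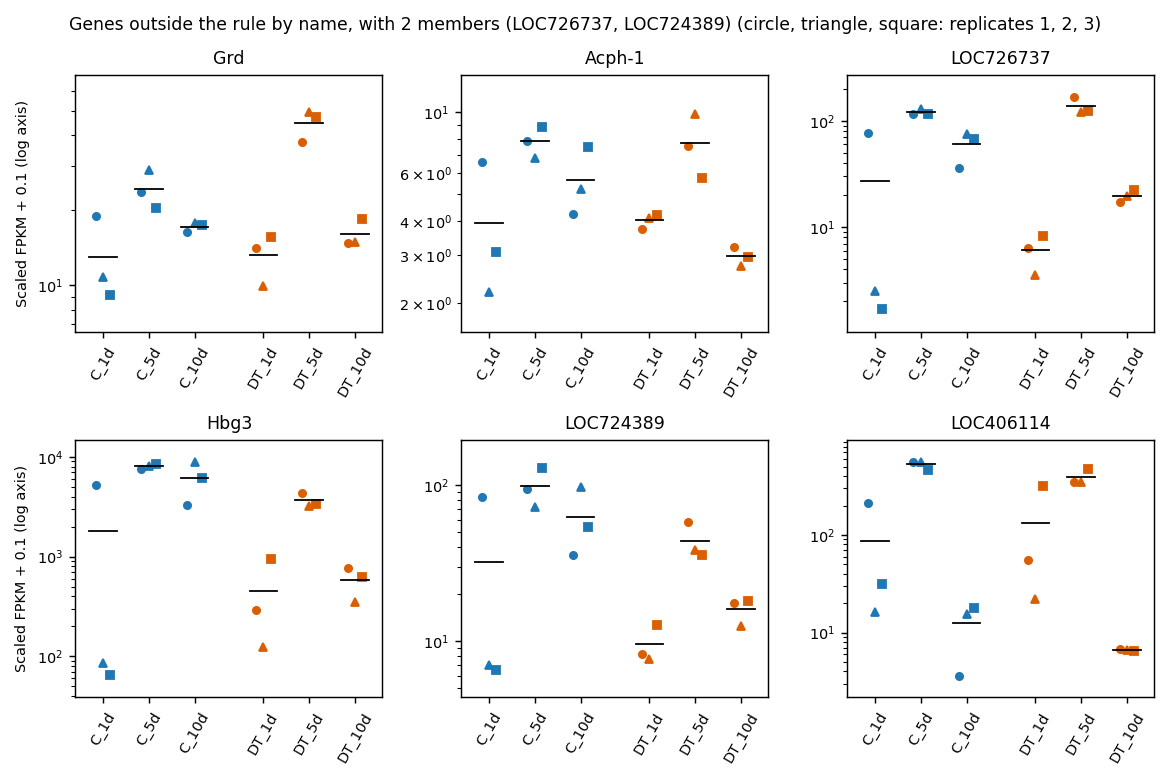
Scaled FPKM + 0.1 on a log axis for Grd, Acph-1, Hbg3 and LOC406114, which the rule could not take by name, with the members LOC726737 (7989 bases from LOC412488 and near Acph-1) and LOC724389 (around Hbg3). Circles, triangles and squares are replicates 1, 2 and 3, and lines are means. The first library of C_1d is high in all 6 panels, and LOC406114 falls furthest by 10 d.

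The other places held pairs. LOC726134 and LOC411223 are 4430 bases apart on linkage group 7. LOC726978 and LOC107963999 on linkage group 15, LOC102654465 and LOC551257 on 4, LOC100578156 and LOC411099 on 5, LOC411706 and LOC551805 as well as LOC551179 and LOC411696 on 7, LOC409433 and LOC107964022 on 9 and LOC724285 and LOC408306 on 10 completed the list. Other genes lay between or over the members of each pair except LOC724285 and LOC408306, and in total 39 members overlapped the span of another listed gene.

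Among 294 genes with a 5 d level of at least 1 that the rule could not take by name, LOC406114 would have led the list with a rule value of 2.40. It was at 211, 16.2 and 31.7 in C_1d, 555, 564 and 463 in C_5d and 3.53, 15.6 and 17.9 in C_10d, and at 55.6, 22.2 and 317, then 347, 349 and 472, then 6.75, 6.61 and 6.36 in DT. Mrjp6 (0.69), Hbg3 (0.51), Acph-1 (0.50) and LOC406105 (0.49) came next. After Grd and Acph-1, the closest to the members' mean were Mrjp8 (r = 0.77), a royal jelly family protein, LOC406114 (0.77) and the cytochrome P450 Cyp6as5 (0.76). The members themselves ran from 0.25 to 0.96, with a median of 0.72, partly by construction.

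The gland list as a whole moved in another way. Its sum ran from 42828 to 93319 in C_5d, from 23409 to 174153 in C_1d and from 16302 to 41326 in C_10d, and from 136766 to 205072 in DT_5d, from 174168 to 288395 in DT_1d and from 9546 to 12609 in DT_10d. Of its 10 genes, Hbg3, LOC406081 and LOC406114 were highest at 5 d in both treatments, and the others were not. The levels of 5 royal jelly genes of the list (Mrjp1, Mrjp2, Mrjp3, Mrjp4 and Mrjp7) did not overlap between DT_5d and C_5d, while those of Mrjp5 did. For Mrjp1, higher in DT_5d in these values, the study's PCR text reports a reduction in DT at 5 d. The study's list of its most abundant mRNAs, under groups headed DT_3d and C_3d, also has Mrjp1 lower in treated bees. For Hbg3 that list has the same direction as these values. The conflict over Mrjp1 was not resolved here. Mrjp2 was at 7121, 5147 and 3389 in DT_5d and 411, 312 and 351 in C_5d, and Mrjp7 at 291, 180 and 180 against 11.5, 10.99 and 8.45. At 5 d, 7 of the 10 genes had all DT libraries above all C libraries (12.8% of all genes). Hbg3 had them all below (12.4%). The study's PCR text reports Hbg3 higher in treated bees, which was not resolved here either. With all libraries none of the 10 was called between DT and C at any age (limma, adjusted p at 5 d from 0.0896). Without the first library of C_1d, 5 were called higher in DT_5d (Mrjp1, Mrjp2, Mrjp3, Mrjp4 and Mrjp7, by 3.21 to 4.36 on the log2 scale), and in DT_10d 3 were called higher (Mrjp1, Mrjp2 and Mrjp3) and Hbg3 lower. Of all genes, 1.67% were then called higher and 0.46% lower at 5 d, and 0.428% and 0.856% at 10 d. That library is in neither group compared, and the differences were the same with it. Only the SE was smaller without it, for Mrjp2 at 5 d 0.484 in place of 1.09. The part of these genes in the members' differences between DT and C was not tested.

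The files also list 42 lncRNA transcripts under 22 member genes. The lncRNA values of the first library of DT_1d equalled those of the first library of DT_10d in all 5002 transcripts above 0. Which of both libraries they belong to is not stated: they were kept as DT_10d by assumption, which left 17 libraries. The values correlated with the other DT_10d libraries at r = 0.80 and with the other DT_1d libraries at 0.65 and 0.69 (log2 scale, across transcripts, which are not independent). With the C libraries r ran from 0.69 to 0.79, so these correlations do not settle the origin. Of 37 transcripts tested, 13 had their highest mean at 5 d in both treatments, against 10.8% of all 4378 lncRNA transcripts tested. Reads of such a transcript may also have counted for its gene, so the transcripts are not independent of the members.

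TCONS_00020080 under LOC724900 was at 2.82, 3.71 and 2.51 in C_5d and 1.99, 2.24 and 1.68 in DT_5d, above every library of other ages (at most 1.40). TCONS_00053766 under LOC727324 was at 1.86, 1.86 and 2.05 in DT_5d and at most 0.456 in DT_1d and DT_10d, while in C the first library of C_1d (1.45) exceeded those of C_5d (1.31, 0.912 and 0.871). In all, 2 transcripts were called between DT and C, where 0.16%, 0.959% and 0.868% of all lncRNA transcripts were called at 1, 5 and 10 d. TCONS_00081105 under LOC412795 was higher in DT_10d (1.35, 1.04 and 0.929) than in C_10d (0.191, 0.306 and 0.369) by 1.65 on the log2 scale (limma, adjusted p = 0.00672) and had its maximum at 5 d in both. TCONS_00033845 under LOC409207 was higher in DT_5d by 1.63 (adjusted p = 0.0263) at levels below 0.5. Without the column of unstated origin both stayed called (1.504, adjusted p = 0.0360, and 1.63, adjusted p = 0.0404).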

How the data were processed

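RNA-seq of 18 brain libraries (3 for each of 6 groups, taken from the sample titles) was analysed. Per the study's methods, the authors aligned reads to Amel_HAv3.1 with Hisat2, assembled them with StringTie, merged and compared transcripts with Cuffmerge and Cuffcompare and computed the deposited FPKM with Cuffdiff (Cufflinks 2.1.1). The normalization option, strand handling and other versions are not given in the sources used here. FPKM keeps no read counts: low values did not fall on whole reads (at most 2.84% of low genes shared 1 ratio within 0.001 in natural log), so read depth per gene was not recovered, and precision is the SD between 3 libraries (the study lists read totals per library, which were not used here). All mRNA rows of a gene carry 1 value, which gave 9935 genes, matched to the RefSeq table of Amel_HAv3.1, whose coordinates are printed.

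Values were divided by median ratios, and limma 3.58.1 in R 4.3.3 (6 group means, eBayes with trend) was fitted to log2(scaled FPKM + 0.1) for the 9348 genes and 4378 lncRNA transcripts that reached 0.1 FPKM in 3 or more libraries. Adjusted p are Benjamini-Hochberg values over all of them, and a call needed adjusted p under 0.05 and a log2 difference beyond 1. The 5 d level against other ages chose the members and has no test. Nothing says that the libraries of a group came from separate cages, so p-values measure the spread between these libraries. Alternatives were no scaling, quantile normalization, pseudocounts of 1 and 0.01, no filter, no trend, a replicate block, genes alone, no fold limit and each library left out. The members and lists were chosen with earlier results of these data known.

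Named were the 25 members with the highest rule value, the 10 most abundant at 5 d, those called (up to 5 per contrast and direction), those at the limit of the list, neighbours within 50 kb and the 5 nearest genes outside the rule by name. Product names and sequences of the genes were not used here, so product classes and the glia, muscle and hemocyte markers were not applied. Python 3.11.15, numpy 2.4.6, pandas 2.3.3 and matplotlib 3.10.9 made summaries and figures.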

Additional observations from a re-analysis of the deposited data

Results flagged for a closer look

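LOC724285 was flagged because the height of its 5 d maximum differed between treatments by a test of that difference. The height was larger in DT than in C by 1.04 on the log2 scale (interaction in limma, adjusted p = 0.00879), with all 3 DT_5d libraries above all 3 C_5d libraries. Single outlying libraries were not tested, since every group had 3.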

How the results depend on the processing

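With FPKM as deposited and no scaling, the rule took 32 members again, all C_5d libraries lay above the other ages for 10 members (0.407% of all genes) and all DT_5d libraries for 11 (0.214%), and the members called were 0 in DT_5d against C_5d, 1 in DT_10d against C_10d, 66 in DT_10d against DT_1d and 0 in the height of the maximum, of which 1 was called in the main analysis. On that scale 62.7% of all genes were called in DT_10d against DT_1d. The share was 0.246% in DT_5d against C_5d, 0.342% in DT_10d against C_10d and 0% in the height. Quantile normalization left 1 call in DT_5d against C_5d, a pseudocount of 1 left 0 in the height, and a list of the largest 50 held 50 members. With 1 library left out, the rule took 78 to 95 members again, the non-overlapping counts were 45 to 64 in C (all genes 2.29% to 5.4985%) and 54 to 67 in DT (3.61% to 6.76%), and calls ran from 0 to 3 (DT_5d against C_5d), 1 to 6 (DT_10d against C_10d), 2 to 16 (C_10d against C_1d), 9 to 13 (DT_10d against DT_1d) and 0 to 1 (height). The 16 in C_10d against C_1d came without replicate 1 of C_1d, where 3.38% of all genes were called higher and 6.3% lower. The 6 in DT_10d against C_10d came without it too (all genes: 0.428% and 0.856%). Replicate 1 of C_1d is in neither group of DT_10d against C_10d, where the differences stayed the same and only their SE changed. The cause of the other changes was not tested. Calls in DT_5d against C_5d fell to 1 without replicate 1 of C_5d or replicate 3 of DT_5d and to 0 without replicate 2 of DT_5d, and those in DT_10d against C_10d rose to 5 without replicate 1 of C_10d (all genes: 0.203% higher, 0.396% lower). The height of LOC724285 was not called without replicate 3 of DT_5d or replicate 2 of DT_10d. No called member changed direction in any of the 26 alternatives. Same-numbered libraries of C and DT shared only a number (r of their deviations from -0.137 to 0.255, 3 of 9 libraries closest to their own number), and with the replicate block the calls were 0, 2, 2, 2, 12 and 1 in DT against C at 1, 5 and 10 d, C_10d against C_1d, DT_10d against DT_1d and the height. Shares of all genes are not given for the replicate block and the remaining alternatives. Those counts are therefore not read as a result about the members.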
